A study of Mus musculus with 12 samples.

Results

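A set of 187 microarray probes read at least 4-fold lower in the lungs of smoke-exposed offspring than in those of offspring kept in filtered air, out of 41174 probes on the array that are not controls. The probes were chosen from the intensities themselves. Each array was divided by its own 75th percentile over those 41174 probes, values under a floor of 1.16% of that percentile were raised to it, and log2 was taken. A probe belonged to the set when all 3 offspring air arrays exceeded 5% of the 75th percentile, every offspring smoke array lay below every offspring air array, and the mean log2 difference, smoke minus air, was -2 or lower. The size and direction of the offspring difference are therefore properties of the selection, and they are described here without a test. Of the 41174 probes, 21496 passed the minimum in offspring air, and 6400 of these were lower on every offspring smoke array. The fold limit then left the 187 members. Another 2 probes that passed the minimum were low enough on average but were left out because their groups overlapped.

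The arrays came from 12 lungs of female B6C6F1 mice in 4 groups of 3 biological replicates. Prenatal offspring had been carried by dams that breathed cigarette smoke, or by dams that breathed filtered air, and the mature pregnant dams of both treatments were measured too. The smoke came from 3R4F cigarettes, a standardised reference product for research. It was diluted to 1 part in 50 with filtered air, and the dams breathed it for 4 h a day, 5 days a week, during the 18 days of gestation. Litters are not given in the labels, and p-values therefore cover only the spread between these samples. The labels do not say which dye channel the deposited values hold. They put lung RNA in Cy5 and a universal mouse reference RNA in Cy3, so a value could be read as lung signal only if the table holds the lung channel.

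Before birth the lung passes from branching airways to thin-walled air sacs, while its epithelium begins to make surfactant and its vessels and connective tissue grow around the sacs. Cigarette smoke carries nicotine, carbon monoxide, oxidants and polycyclic aromatic hydrocarbons, and some of these cross the placenta. In adult lung, smoke is known to induce enzymes of xenobiotic metabolism and antioxidant defence. None of the probe identifiers matched the RefSeq gene table used here (0 matches of 41174), so no gene, pathway or cell type is named. For the same reason the lung label was not checked against marker genes, and gene lists drawn up for lung development, cell cycle, matrix, xenobiotic response and lung cell types were not applied.

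The members were mostly dim probes, and their level was lowest in offspring smoke, where the rule put it. The median member read 4.58%, 4.35% and 4.59% of the 75th percentile on offspring smoke replicates 1, 2 and 3. On the offspring air arrays it read 16.3%, 21.2% and 29.3%. On the dam smoke arrays it read 16.9%, 16.7% and 8.13%, and on the dam air arrays 15.3%, 14.3% and 18.3%. The 3 offspring smoke arrays thus lay close together and below the other 9, and dam smoke replicate 3 lay apart from its own group. The median of all 28200 probes that rose above the floor on at least 3 arrays moved little beside this, between 40.5% and 43.7% of the 75th percentile over the 12 arrays.

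The arrays also differed in brightness and in their spike-in controls, RNA added in the laboratory. The 75th percentile of intensity was 917, 491 and 549 on offspring smoke replicates 1, 2 and 3 and between 839 and 1164 on the other 9 arrays. Without scaling, the members' median intensity was 41.9, 21.4 and 25.2 on the offspring smoke arrays against 137, 184 and 342 on the offspring air arrays. The signal of 6 E1A spike-in probes divided by the 75th percentile was 3.42, 4.22 and 3.59 for replicates 1 to 3 of offspring smoke, against 2.30, 3.23 and 1.60 for those of offspring air. The dam smoke arrays had ratios of 1.52, 1.77 and 2.76 and the dam air arrays ratios of 1.59, 1.65 and 1.86. The offspring difference in this ratio had an exact two-sided permutation p of 0.1, the smallest that 3 arrays against 3 allow, and the dam difference one of 0.7. With this ratio as a covariate, an alternative chosen after seeing the data, limma called 176 of the 187 members in offspring, against 184 without it. The rule used this contrast, so neither count tests the members, and no share over all probes stands beside the 176.

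In offspring the members were a median of 4.82-fold lower in smoke than in air, with a mean log2 difference of -2.27 for the median member and of -2.12 and -2.54 at the upper and lower quartile. The differences crowded towards the limit of the rule: 40 members lay between -2 and -2.1, 54 at -2.5 or lower and 8 at -3 or lower. A typical case is the member that ranked 94th of 187 by its difference. It read 5.43%, 5.88% and 5.18% on the offspring smoke arrays, against 19.1%, 27.0% and 35.8% on the offspring air arrays. The same probe read 21.5%, 24.0% and 11.04% in dam smoke, whereas the dam air arrays read 25.2%, 14.9% and 31.0%. Its offspring smoke values stood below all 9 other arrays, and its lowest value elsewhere was that of dam smoke replicate 3.

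Some members were bright. The brightest member whose 3 offspring air arrays lay within 2-fold of each other averaged 273 ± 13.4% of the 75th percentile in smoke-exposed offspring, against 1691 ± 433% in air offspring (SD, n = 3 each). In dams it averaged 1633 ± 567% after smoke, where the arrays read 2160%, 1707% and 1033%, and 1919 ± 138% after air (SD, n = 3 each). At the other end, the member with the lowest mean in offspring air averaged 1.45 ± 0.205% in smoke-exposed offspring against 5.88 ± 0.923% in air offspring, and 2.98 ± 1.08% in smoke-exposed dams against 3.44 ± 1.18% in air dams (SD, n = 3 each). For 19 members at least 1 offspring smoke array was at or under the floor, and for 5 all 3 were, so their fold differences are understated. On the dam and offspring air arrays 0 members were at the floor.

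The fold limit divided a continuous range. The 2 members just inside it had log2 differences of -2.001 and -2.002, with 19.8 ± 3.46% and 22.03 ± 3.11% in offspring smoke against 79.2 ± 11.7% and 87.7 ± 4.42% in offspring air (SD, n = 3 each). The 2 probes just outside, at -1.999 and -1.997, measured 161 ± 5.26% and 1.48 ± 0.424% in offspring smoke against 647 ± 72.5% and 5.90 ± 0.721% in offspring air. A further count of 123 probes met every other condition with a difference between -2 and -1.8. Which probes belong also depended on single arrays. Without offspring air replicate 1 the rule found 350 probes, 169 of them members, and without offspring air replicate 3 it found 143, of which 132 were members. With medians in place of means, 170 of the 187 had a difference of -2 or lower.

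Probe A_51_P508781 had the largest difference among members that were measured alike on all replicates. It read 4.89%, 5.20% and 4.66% on the offspring smoke arrays and 43.5%, 56.4% and 61.7% on the offspring air arrays. In dams it read 44.4%, 54.2% and 53.3% in smoke and 53.4%, 49.4% and 54.9% in air. The 9 arrays outside offspring smoke thus covered 43.5% to 61.7%, and the offspring smoke arrays averaged 10.8-fold below offspring air. Unlike most members, this probe was not lower on dam smoke replicate 3.

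The single largest log2 difference, -4.00, belonged to A_52_P94334 and came from 1 array. It read 7.72%, 7.43% and 7.61% in offspring smoke, whereas in offspring air it read 12.01%, 13.8% and 10815%. The dam arrays read 10.7%, 9.45% and 8.61% in smoke and 9.87%, 12.03% and 8.99% in air, so 11 arrays lay between 7.43% and 13.8% and offspring air replicate 3 alone lay far above them. Without that array the log2 difference was -0.76, outside the rule. A_51_P191700, the brightest member in offspring air by its mean, had the same form. It read 475%, 591% and 501% in offspring smoke, against 26308%, 816% and 765% in offspring air; without offspring air replicate 1 its log2 difference was -0.60. Its dam values were 996%, 968% and 774% in smoke and 1037%, 1078% and 990% in air, close to the other 2 offspring air arrays.

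These 2 probes and A_52_P121342 were the 3 members that limma did not call in offspring (adjusted p of 0.106, 0.0802 and 0.156 in the same order); A_51_P191700 and A_52_P121342 are named because their values stood out. A_52_P121342 read 13.0%, 11.9% and 11.1% in offspring smoke, against 17.4%, 84.0% and 78.8% in offspring air. In dams it read 7.16%, 304% and 17.0% in smoke and 198%, 75.6% and 294% in air. Arrays of 1 group thus ran from 7.16% to 304% in dam smoke and from 17.4% to 84.0% in offspring air. Of the 3 dam smoke arrays 2 read low, at 7.16% and 17.0%, as did offspring air replicate 1 at 17.4%. Limma called the remaining 184 members lower in offspring; over all 28200 probes it called 25.1% lower, and since the rule used this contrast nothing is read from the members' count.

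On the members, replicates of offspring smoke had the smallest spread of the 4 groups, as they had over all probes tested. The rule used the offspring arrays, and values raised to the floor narrow the spread in offspring smoke. The spreads are therefore descriptions. The median SD of a member on the log2 scale was 0.177 in offspring smoke, 0.360 in offspring air, 0.613 in dam smoke and 0.242 in dam air (n = 3 arrays each). Over all probes tested the same SD was 0.122, 0.204, 0.153 and 0.128, so members varied more than the typical probe in every group. The arrays of a group spanned more than 2-fold for 8 members in offspring smoke, 52 in offspring air, 119 in dam smoke and 18 in dam air. These were 4.28%, 27.8%, 63.6% and 9.63% of the members, against 0.693%, 4.60%, 2.31% and 1.29% of all probes that passed the offspring air minimum. In offspring air, replicate 3 was the highest of the 3 arrays for 131 members (70.1%), against 30.9% of all probes tested, and replicate 1 was the lowest for 97 (51.9%), against 37.1%. Replicate 3 also had the lowest spike-in ratio of the group, 1.60.

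Smoke against air in dams is the comparison that the selection did not use. Members were on average lower in smoke-exposed dams, and the shift came from 1 array. Of the 187 members 176 had a lower mean in dam smoke (94.1%, against 52.3% of all probes tested), with a median log2 difference of -0.29, a 1.23-fold difference, against -0.01 over all probes. Limma called 0 members lower and 0 higher at an adjusted p under 0.05 (background 0% of 28200 probes in each direction), and the smallest adjusted p among members was 0.777. At an unadjusted p under 0.05, 5 members were lower and 0 higher, or 2.67% lower against a background of 1.86% of all probes (2.27% higher). Every dam smoke array lay below every dam air array for 8 members, or 4.28%, where the background was 5.30%. The plain equal-variance test called 0 members as well. Array weights, which count down arrays that fit their group poorly, called 3 lower. With these weights 1014 of all 28200 probes tested were called in either direction. The 3 members were A_52_P79889, A_52_P1115511 and A_52_P63343, all named after their values were seen.

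Dam smoke replicate 3 carried the shift. Relative to the dam air mean of the same probe, the median member lay at 0.09 on dam smoke replicate 1, -0.02 on replicate 2 and -0.97 on replicate 3 on the log2 scale, while the median of all probes tested stayed near 0 on each of them (-0.0004, -0.0110 and 0). Replicate 3 was below every dam air array for 178 members (95.2%), against 30.6% of all probes; replicates 1 and 2 were so for 17 and 40 members (9.09% and 21.4%), against 24.3% and 21.8%. It was the lowest of the 6 dam arrays for 173 members (92.5%, background 24.6%), and the lowest of all 9 arrays outside offspring smoke for 167 (89.3%, background 16.9%). At 157 members it lay 1.5-fold or more below the dam air mean (84.0%, background 6.68%), and at 86 of these 157 it lay 2-fold or more below. Without this array 76 of 187 members had a lower mean in dam smoke and the median log2 difference was 0.04. The spike-in ratio of dam smoke replicate 3, 2.76, was also the highest of the 6 dam arrays. Offspring air replicate 2 had a ratio of 3.23 and a median member at 21.2% of the 75th percentile. The rule required members to read high on that array, so nothing is read from this pair of values. Whether the ratio bears on the members was not tested. With the ratio as a covariate, the members' median log2 difference in dams was -0.16 in place of -0.29, 154 members were lower on average in place of 176 (53.0% of all probes tested), and limma again called 0. The 75th percentile of intensity of dam smoke replicate 3, 1019, lay within the range of the other dam arrays, 839 to 1101.

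On this scale dam smoke replicate 3 lay part of the way from dam air to offspring smoke. Its distance below dam air was a median of 0.467 of the distance of offspring smoke from dam air, with quartiles of 0.375 and 0.594 over the members. Across the 187 members the 2 distances correlated at Pearson r = 0.388 and Spearman rho = 0.348. This is a description across probes, which are not independent replicates and which share the dam air arrays and the floor. The array was at or above the dam air mean for 5 members: A_51_P508781, A_52_P21550, A_52_P325918, A_51_P267933 and A_52_P686130, named because they were the exceptions.

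The median standard error of a member's dam difference was 0.31 on the log2 scale, and the median half-width of its 95% interval was 0.68. Both rest on a spread pooled over the 4 groups, whereas the members' own median SD in dam smoke was 0.613. The 2 members with the smallest p among those lower in dam smoke were A_52_P79889 and A_52_P1115511. A_52_P79889 read 151%, 207% and 271% in dam smoke, against 383%, 359% and 370% in dam air, which is -0.86 ± 0.25 on the log2 scale (standard error, limma adjusted p 0.777). All 3 smoke arrays lay below the air arrays, and replicate 3 was the highest of them, unlike at most members. A_52_P1115511 read 3.50%, 3.44% and 4.22% in dam smoke, against 6.52%, 4.92% and 7.08% in dam air, with a log2 difference of -0.72 (limma adjusted p 1). Among the 11 members with a higher mean in dam smoke, A_51_P267933 read 11.3%, 14.0% and 7.96% in smoke and 8.99%, 3.93% and 9.81% in air, and A_52_P686130 read 6.80%, 6.74% and 7.19% in smoke and 5.18%, 4.47% and 6.25% in air. Their log2 differences of 0.62 and 0.40 both had an adjusted p of 1 in limma, and the groups did not overlap for the second alone, the 1 member of this kind (background 6.05%).

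Set against the dams, the offspring smoke group was the one that stood apart. In air, offspring and dams held the members at similar levels: 178 of 187 differed by less than 2-fold, 7 were 2-fold or more higher in offspring (background 0.379%) and 2 were 2-fold or more lower (background 0.791%). The median log2 difference was 0.27, a 1.20-fold higher level in offspring air, against 0.02 over all probes tested. On average 150 members were higher and 37 (19.8%) lower, where 46.8% of all probes tested were lower. Limma called 0 members higher and 0 lower (background 0.0426% higher and 0.110% lower). At an unadjusted p under 0.05 22 were higher and 1 lower, against a background of 7.98% and 8.05%. The rule favoured probes that read high in offspring air, so this tilt is described and not tested. In smoke, all 187 members had a lower mean in offspring than in dams (background 45.8%), with a median log2 difference of -1.75. On every array 178 of them were lower (background 26.9%). Limma called 178 lower (background 21.1%), and 56 when the spike-in ratio entered as a covariate. No share over all probes stands beside the 56, so nothing is read from the fall. This comparison shares the offspring smoke arrays with the rule. For 177 members every offspring smoke array lay below each of the other 9 arrays, which was so for 19.7% of all probes tested. The rule had already put offspring smoke below every offspring air array for all 187 members, so this contrast is partly built in.

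The 12 arrays lay on 3 slides, and only slide 1 held both offspring groups. It had 1 array of each and 2 of dam smoke. Between its offspring arrays the members' median log2 difference, smoke minus air, was -2.16. All 187 were lower there because the rule required it, so nothing is read from this pair. Slide 2 held offspring smoke and dam air, and there the members' median was -2.14 for offspring smoke replicate 2 less dam air replicate 1 and -1.99 for offspring smoke replicate 3 less dam air replicate 2. Slide 3 held 1 array of each dam group and 2 of offspring air. On it the members' median was -1.10 for dam smoke replicate 3 less dam air replicate 3, with 182 of 187 lower, against 48.2% of all probes tested. The members' median was 0.07 and 0.47 for offspring air replicates 2 and 3 less the same dam air array. Dam smoke replicate 3 was the only smoke array on that slide, so the dam difference within a slide rests on the array that lay apart. With slide as a fixed block, the members' median log2 difference in dams was -0.49, 178 members were lower (47.4% of all probes tested), and limma called 0.

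The members were unevenly spread over levels of intensity and over the 2 probe series of the array. When the 21496 probes that passed the offspring air minimum were divided into 4 classes of 5374 by their level in dam air, which the rule did not use, the dimmest class held 109 members (2.03% of the class). The next classes held 33 (0.614%), 30 (0.558%) and, at the brightest, 15 (0.279%). On dam smoke replicate 3 the members' median difference from the dam air mean was -1.06, -0.94, -0.88 and -0.83 in the classes, dimmest first, where all probes of the class had medians of -0.05, 0.01, 0.05 and 0.09. Of the members 125 carried an identifier of the A_52 series and 62 one of the A_51 series, so 66.8% were A_52 probes, against 47.6% of all probes that passed the offspring air minimum. A_52 probes were more common among dim probes, with 60.8% of the dimmest class and 32.3% of the brightest. Within the dimmest class 82 of the 109 members were A_52 probes, and within the brightest 5 of 15 were. The sources used here do not say what sets the 2 series apart.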

How the data were processed

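Lung total RNA was measured on 12 Agilent arrays, and the authors deposited 1 linear intensity value per probe and array, with no scaling between arrays; the image analysis and background subtraction are not stated in the sources used. Of 41267 rows, 93 were control probes. Group and replicate came from the sample titles and slide from the descriptions. Differences were tested with limma 3.58.1 in R 4.3.3 (lmFit and eBayes, 1 mean per group, 12 arrays, 8 residual degrees of freedom) over the 28200 probes that exceeded the floor on 3 or more arrays, two-sided, with Benjamini-Hochberg adjustment over all of them. Log2 differences are on the floored scale, and the number of arrays limits the precision. The steps were tested on simulated data. The most alike arrays (dam air replicates 1 and 3, r = 0.997) shared 0 identical values, so all were counted.

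The members and lists were chosen with earlier results of these data known. Named probes followed a rule: largest offspring difference, then smallest p in dams, at most 2 per comparison and direction; others are said to be singled out. Alternatives covered scaling, floor, blocks, weights, the test and leaving out each array; the spike-in ratio as a covariate was added after seeing the data.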

Additional observations from a re-analysis of the deposited data

Results flagged for a closer look

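Outside the comparisons, the spike-in controls gave a signal that differed between the offspring groups: their ratio to the 75th percentile was 0.71 higher on the log2 scale (0.709) in offspring smoke than in offspring air, at 3.74 ± 0.423 against 2.38 ± 0.819 (SD, n = 3 each). With this ratio as a covariate, an alternative chosen after seeing the data, limma called 176 of the 187 members in offspring in place of 184, and 56 in place of 178 for offspring against dams in smoke. Both comparisons share offspring arrays with the rule, so these counts are descriptions and do not test the members. No share over all probes stands beside the 176 and the 56, so nothing is read from the falls.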

How the results depend on the processing

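The rule found 187 probes, and between 143 and 350 with 1 offspring array left out. It found 749 unscaled and 936 after spike-in scaling, 187 and 175 of them members, and 96 with a floor at 5%; median centring gave 142 and quantile normalization 159, of which 134 and 150 were members. The median log2 difference over all probes in offspring was 0.05 in the main setting and 0.18 with arrays centred on their median. It was -0.49 unscaled and -0.58 after spike-in scaling. In the last 2 the members' median was -2.80 and -2.90. The rule chose the members by this contrast, so nothing is read from the direction that they kept. In dams 0 members were called in every setting but array weights (3), and the members' median ran from -0.51 to 0.04 with 1 array left out. For offspring against dams in air, with 0 called, array weights gave 20 and the spike-in covariate 2 (A_52_P679101 and A_52_P256507, named after their values were seen). The floor at 5% and the trended spread gave 1 each (A_52_P679101), and leaving out an array 0 to 6. No share over all probes stands beside these counts, so nothing is read from them. The members' median in air was -0.16 with spike-in scaling, where all probes had -0.40. For offspring against dams in smoke the spike-in covariate left 56 calls and 1 array left out 164 to 182. These counts also have no share over all probes beside them. The members' median in this comparison was -2.62 with spike-in scaling. Leaving out 1 array gave 184 to 186 calls in offspring, the contrast that the rule used, with a median between -2.41 and -2.15. Litters are not given in the labels, so whether replicate numbers pair the samples is not known. Same-numbered arrays deviated together at r between -0.164 and 0.217, which cannot decide it. With the replicate block 0 members were called in dams, 184 in offspring, 0 in air and 176 in smoke. The cause of these changes was not tested. Dimness limits 19 members whose offspring smoke values reach the floor.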
